A study of Mus musculus with 4 samples.

Results

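Foxp1, Foxp2 and Foxp4 are the members of the Foxp family of transcription factors with appreciable RNA in the lateral septum (LS), and they make up 3 of the 32285 genes counted in each library. They were picked by symbol, and on measured values of these same libraries: Foxp2 had been found in fewer LS neurons of nude and BALB/c mice than of C57J mice. That contrast in LS neurons is therefore described below without a test. The fourth member of the family, Foxp3, the regulator of regulatory T cells, was nearly absent, with 18, 25, 41 and 30 unique molecular identifiers (UMIs, each standing for 1 counted RNA molecule) in all barcodes of C57J 1, C57J 2, nude and BALB/c.

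Single nuclei of LS tissue were sequenced in 4 libraries, each pooled from 3 male mice of 6 to 8 weeks. Of these, 2 came from C57BL/6JNifdc mice (C57J 1 and C57J 2), 1 from BALB/c nude mice and 1 from BALB/c mice. Nude mice lack functional Foxn1, which the thymus needs to make T cells, and share the BALB/c strain background. C57J 1 belonged to batch 1 and the other 3 libraries to batch 2. Nude and BALB/c have 1 library each, so values of either alone have no replicate check, and with pooled mice the p-values below measure the spread between libraries only. That spread holds the batch difference between the C57J libraries and the difference between nude and BALB/c. Foxn1 itself had 6, 2, 5 and 5 UMIs in the 4 libraries in the order above, too few to check the labels.

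Foxp proteins carry a forkhead DNA-binding domain, pair with themselves or with each other through a leucine zipper, and mostly repress their target genes. Foxp1 is known as an abundant factor of striatal projection neurons. Foxp2, known from the inherited speech disorder that follows its loss in people, is strong in striatal neurons of the Drd1 type, the direct pathway, while Foxp4 is better known from progenitors and young neurons.

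After quality limits and removal of predicted doublets 13075, 12489, 12948 and 10913 nuclei remained in the 4 libraries, and their median depths were 5573, 4437, 4856 and 8346 UMIs. Between 4408 and 6408 nuclei per library were LS neurons, with a median depth from 6657 UMIs in nude to 12869 in BALB/c. Their 4 markers (Trpc4, Dgkg, Homer2, Ptpn3) summed to 2142 to 2209 CPM (UMIs per 1000000) there. In every other ranked class and library the sum was at most 910, except 1883 in the 22 vascular nuclei of nude. Ependymal cells and unnamed neurons (1509, 1878, 2003 and 1170 nuclei in C57J 1, C57J 2, nude and BALB/c) were not ranked. The unnamed cluster O9 had Trpc4 among its leading genes. Pairs of libraries shared 29 to 63 barcodes, at most 0.478% of the smaller library. The unit of level is CPM, for which a gene's UMIs were summed over the nuclei of a class and scaled to a class total of 1000000. Values of the 4 libraries are listed in the order C57J 1, C57J 2, nude, BALB/c throughout.

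Foxp1 (ENSMUSG00000030067) lies at chr6:98925338-99522721 on the minus strand of GRCm38. Foxp2 (ENSMUSG00000029563) is on the same chromosome at chr6:14901349-15441977, plus strand, and Foxp4 (ENSMUSG00000023991) at chr17:47867133-47924645, minus strand. The first gene overlaps Gm20705 on its own strand, an intronic transcript with 330 UMIs in all, and Foxp4 overlaps the antisense transcript Gm15556 with 8 UMIs. Per kilobase of annotated exon, the level in LS neurons was 24.6 to 26.5 CPM for Foxp1, 10.1 to 13.9 CPM for Foxp2 and 1.66 to 2.43 CPM for Foxp4. Per kilobase of the whole gene, the order was the same, with 0.566 to 0.611 CPM, 0.305 to 0.419 CPM and 0.142 to 0.208 CPM. Whether intronic reads were counted is not given in the sources used here, so both scales are shown. In every library Foxp1 stood highest and Foxp4 lowest on both.

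Across cell classes the 3 genes peaked in different places. Foxp1 was highest in striatal neurons of the Drd2 type, the indirect pathway, with 2383, 2185, 2803 and 2642 CPM in C57J 1, C57J 2, nude and BALB/c. Striatal Drd1 neurons followed with 1060, 1105, 1354 and 1590 CPM, and no library of the Drd1 class reached the lowest Drd2 library. Vascular cells came next at 843 to 1555 CPM and overlapped Drd1 neurons. All other ranked classes lay between 196 and 622.9 CPM. LS neurons, with 338, 342, 365 and 349 CPM, ranked 10th of the 14 classes, and their order against cholinergic neurons and medial septum and Lhx6 GABAergic neurons was not separable, since these libraries overlapped. Slc17a6 glutamatergic neurons were at the bottom of the order with 201 to 245 CPM. Of 13 pairs of neighbours in the order, 3 did not overlap.

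Foxp2 was highest in striatal Drd1 neurons taken as a class, with 1703, 1344, 1113 and 1150 CPM. The clusters of that class differed widely, as given below, and not all of them were high. No other class came near, since neuroblasts followed with 447, 704, 222 and 452 CPM and striatal Drd2 neurons with 340, 313, 289 and 454 CPM. LS neurons ranked sixth, and their libraries overlapped those of dividing cells above them and oligodendrocyte precursors below. Unnamed neurons, left out of the order, had 474, 224, 237 and 176 CPM and overlapped LS neurons too. Cholinergic neurons (10.6 to 51.3 CPM) and medial septum and Lhx6 GABAergic neurons (7.86 to 46.7 CPM) were lowest. From Drd1 neurons to the next class was the single pair of 13 neighbours without overlap.

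Foxp4 stayed low everywhere. Its highest class was neuroblasts, the young migrating neurons, with 37.9, 47.6, 30.8 and 24.3 CPM, followed by dividing cells with 14.6 to 31.4 CPM. Those sums rest on 9 to 19 UMIs per library in neuroblasts and 3 to 13 in dividing cells. LS neurons had 11.97, 9.80, 9.44 and 8.16 CPM, and cholinergic neurons 2.05 to 5.47 CPM. All 13 neighbouring pairs overlapped, so the order of Foxp4 is a ranking of means only. In vascular cells of nude 0 UMIs of Foxp4 were counted, which allows up to 3.

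**Figure D1:**
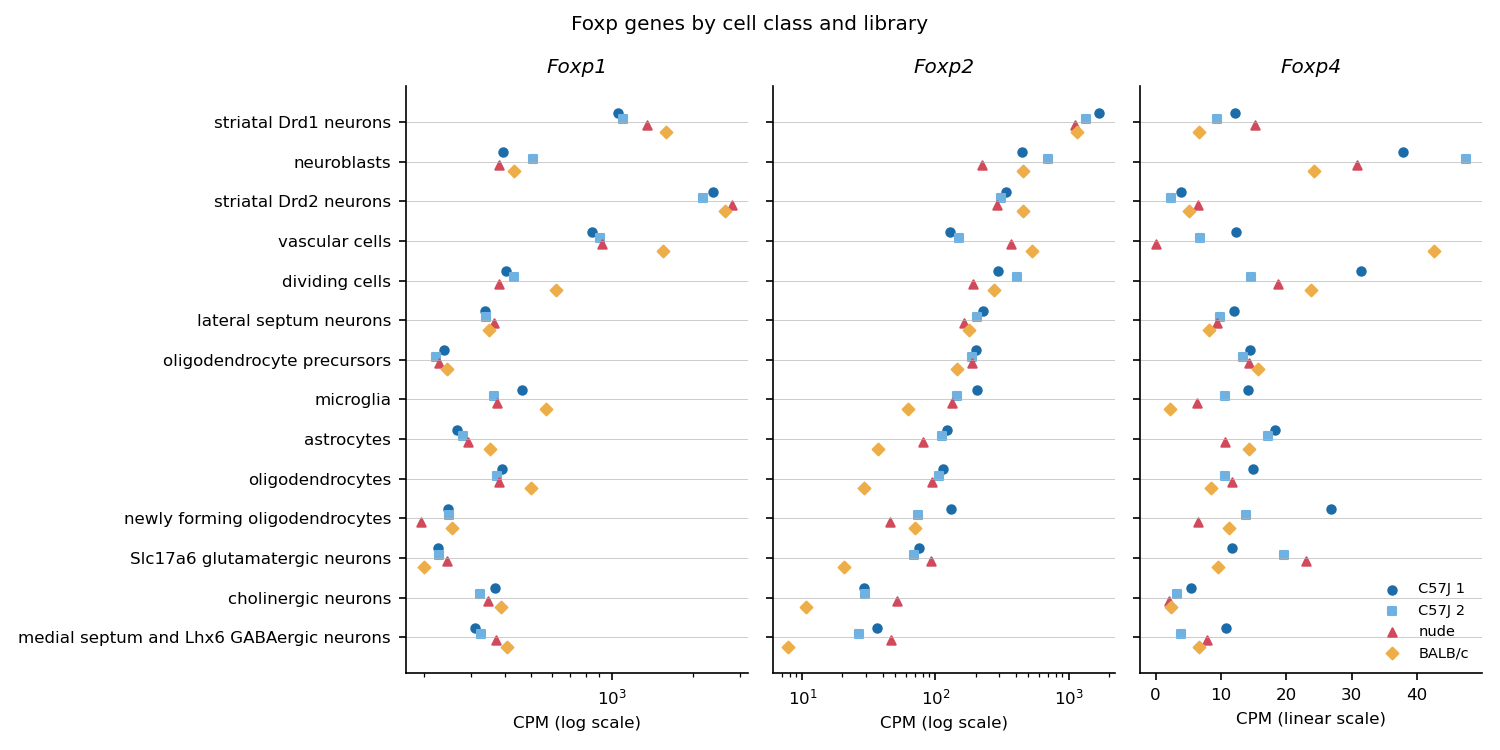
Levels of Foxp1, Foxp2 and Foxp4 in CPM (horizontal axes; logarithmic for the first 2 genes, linear for Foxp4) in the 14 named cell classes, 1 point per library. Foxp1 peaks in striatal Drd2 neurons at 2185 to 2803, Foxp2 in striatal Drd1 neurons at 1113 to 1703, and Foxp4 in neuroblasts at 24.3 to 47.6.

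Within the striatum, the clusters of the Drd1 class had very different ratios of Foxp1 and Foxp2. Cluster O12, led by Mdfic, Otof and Rxrg, had the highest Foxp2 of all clusters named here, with 4020, 3682, 3971 and 3970 CPM, and every one of its nuclei carried a Foxp2 UMI. Foxp1 in the same cluster was 545, 439, 428 and 431 CPM. Cluster O13, led by the dopamine receptor gene Drd3 together with Pkib and Folh1, had Foxp2 at 1615, 1576, 1180 and 1485 CPM and Foxp1 at only 287 to 548 CPM. Both therefore held more Foxp2 than Foxp1 in every library, as counted and without regard to gene length. Neither had the Drd1 type markers Drd1, Tac1, Pdyn or Isl1 among its leading genes, whereas O2 had Drd1 and Tac1 and O16 had Pdyn. The Foxp2 peak of the Drd1 class is therefore not a level that each of its clusters reached.

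The remaining Drd1 clusters showed the opposite order. In cluster O2, led by Crym and Adam12, Foxp1 reached 1673, 1766, 2100 and 2246 CPM, with Foxp2 at 917, 583, 474 and 459 CPM. Cluster O16, marked by the opioid peptide gene Pdyn, had Foxp1 at 816 to 1532 CPM and Foxp2 at 151 to 235 CPM. Drd2 cluster O7, led by the adenosine receptor gene Adora2a, was similar in kind with Foxp1 at 2064 to 2748 CPM and Foxp2 at 293 to 455 CPM. Foxp2 in the Drd1 cluster O16 thus lay below that in O7. Outside the named classes, cluster O4 (Chst9, Eya2, Tshz1) carried Foxp2 at 2683, 2026, 2275 and 2553 CPM with Foxp1 at 248 to 297 CPM.

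**Figure D2:**
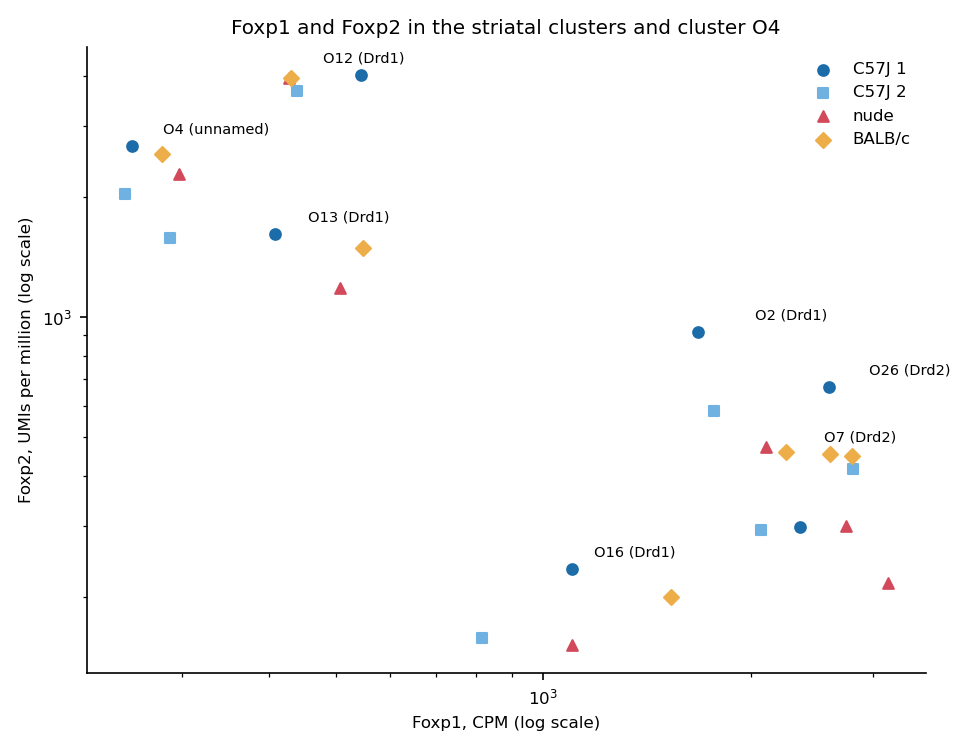
Foxp1 (horizontal) against Foxp2 (vertical), both in CPM on logarithmic axes, in the striatal Drd1 and Drd2 clusters and in the unnamed cluster O4, 1 point per library. O12, O13 and O4 lie in the upper left with Foxp1 below 550, while O2, O16, O7 and O26 lie to the right with Foxp1 above 800. The nude point of O26 rests on 9 nuclei.

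The libraries did not hold the same mix of Drd1 clusters. O13 made up 32.7% of the Drd1 nuclei of C57J 1 and 10.6% to 11.3% of those of the other libraries. With the clusters weighted alike in all libraries, a calculation added after the data were seen, Foxp2 in Drd1 neurons was 1487, 1266, 1243 and 1289 CPM, so that C57J 2 no longer stood above BALB/c. Foxp1 with the same weights was 1164, 1094, 1338 and 1498 CPM, with both C57J libraries still below the others. Drd1 neurons contributed 31.9%, 16.6%, 11.6% and 15.1% of all Foxp2 UMIs of the 4 libraries. LS neurons contributed 39.5% in C57J 1 and 55.0% to 58.6% in the other libraries.

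Among LS neurons Foxp2 was concentrated in few clusters. Clustering was run without the Foxp genes and gave 27 LS clusters, which are called by number and leading genes. Cluster L19, led by Samd5, Adgrv1 and Olfm3, had 2260, 2190, 2077 and 2444 CPM of Foxp2 in C57J 1, C57J 2, nude and BALB/c. Cluster L1, led by the heparan sulfate enzyme gene Ndst4 together with Cdh23 and Adarb2, had 1237, 1341, 1149 and 1069 CPM. These 2 clusters are the ones above 500 CPM in every library. Just outside that limit lay L12, led by Drd3, Slit2 and Mpp7, with 157, 186, 143 and 131 CPM, and then L16 with 79.6 to 108 CPM. L19, L1 and L12 were each separated from the next cluster without overlap of libraries.

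L1 and L19 held 11.96%, 9.86%, 8.21% and 10.6% of LS neurons and 77.2%, 76.9%, 76.4% and 87.8% of their Foxp2 UMIs. They were not alike in other genes. Ddr2, a collagen receptor gene by which the study marks medial LS neurons, was at 41.8 to 107 CPM in L19, rank 3 of the 27 clusters. In L1 it was at 1.99 to 4.03 CPM. Met, which the study names beside Ddr2 as such a marker, went the other way in L19. It was at 0.703 to 2.955 CPM there, rank 27 of the 27 clusters, and at 0.363 to 3.70 CPM in L1. Ndst4 was at 696 to 800 CPM in L1 and 25.6 to 47.8 CPM in L19. Crhr2, the receptor for urocortins, reached 18.5 to 61.9 CPM in L19 and 3.28 to 4.71 CPM in L1.

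**Figure D3:**
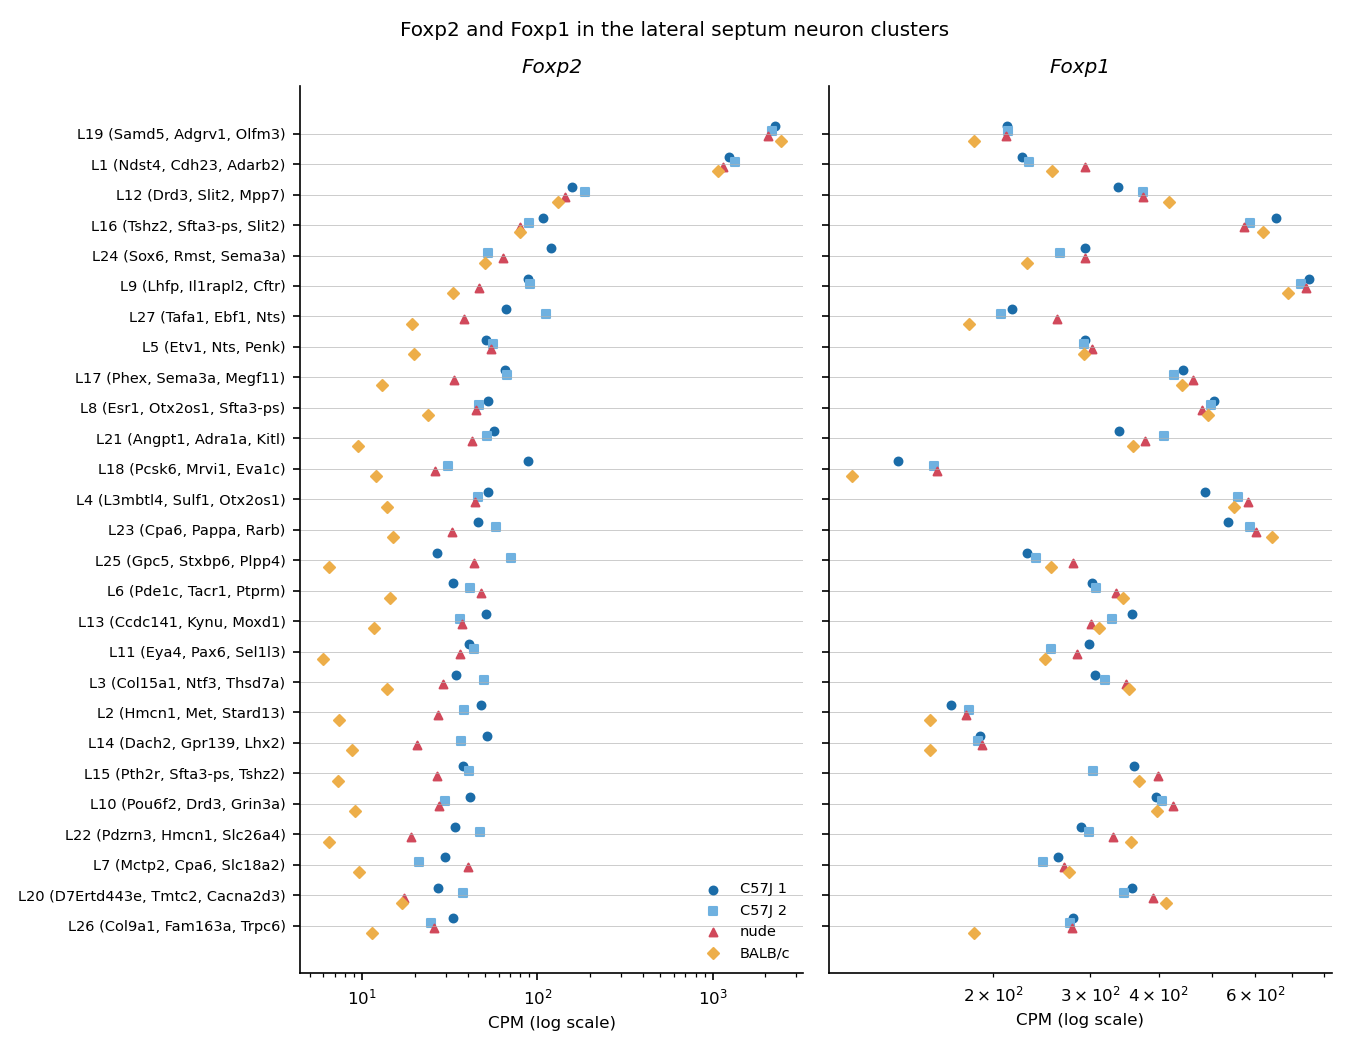
Foxp2 (left) and Foxp1 (right) in CPM on logarithmic axes in the 27 LS clusters, ordered by Foxp2, with leading genes in brackets and 1 point per library. Foxp2 exceeds 1000 in L19 and L1 and falls to 131 to 186 in L12, and BALB/c is the lowest library for Foxp2 in 25 of the 27 clusters, whereas Foxp1 ranges from 110 to 752.

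Foxp1 was spread over all LS clusters. Its highest cluster, L9, led by Lhfp, Il1rapl2 and Cftr, had 690 to 752 CPM and did not overlap the next. L16 (572 to 654 CPM), L23 (535 to 644 CPM), L4 (486 to 582 CPM) and the Esr1 cluster L8 (479 to 504 CPM) followed. At the low end stood L18, led by Pcsk6, with 110 to 158 CPM, and the Met cluster L2 with 153 to 181 CPM. L1 and L19 had 225 to 294 CPM and 184 to 213 CPM of Foxp1, ranks 21 and 24 of 27. Of 26 neighbouring pairs 3 did not overlap.

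Foxp4 was highest in L2 (17.1 to 23.2 CPM) and in L7, led by Mctp2 and Cpa6 (15.1 to 23.5 CPM). None of its 26 neighbouring pairs was free of overlap. Across the 27 LS clusters the 3 genes were close to unrelated: Pearson's r of log2(CPM + 1) was -0.09 between Foxp1 and Foxp2, -0.18 between Foxp1 and Foxp4 and -0.07 between Foxp2 and Foxp4. These points share libraries and depth and describe the clusters only.

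The overlap of Foxp1 and Foxp2 was also counted nucleus by nucleus. With every nucleus thinned to 2000 UMIs, both genes were found together in 6.66%, 6.60%, 6.16% and 4.68% of LS neurons of C57J 1, C57J 2, nude and BALB/c. Foxp1 was found in 36.9%, 40.8%, 45.2% and 39.5% of LS nuclei with Foxp2 and in 45.2%, 46.7%, 48.0% and 47.6% of those without. It was thus less frequent beside Foxp2 in all 4 libraries. In the 25 clusters outside L1 and L19 that order held in C57J 1 alone (40.6% against 45.3%), and the other 3 libraries had it reversed.

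By the likeness of their levels over the 27 LS clusters among 8331 genes, the 5 closest to Foxp1 were Gabpb1 (r = 0.84), Paf1 (r = 0.79), Radil (r = 0.79), Cnot10 (r = 0.76) and Fibcd1 (r = 0.76). All 5 had their highest level in L8. The closest to Foxp2 were C1ql3 (r = 0.81), Fbxw13 (r = 0.80), Mdfic (r = 0.77), Olfm3 (r = 0.70) and Sgcd (r = 0.66), each highest in L19, and the first 3 were at 21.4 to 28.5 CPM there and under 1 CPM in the median cluster. They did not share the high Foxp2 of L1 to a like degree. C1ql3 was at 2.50 and Mdfic at 2.39 CPM in L1, and Fbxw13, Olfm3 and Sgcd had L9, L16 and L12 as their second-highest clusters. The closest to Foxp4 were Nbl1 (r = 0.79), Tmed8 (r = 0.75), Stx6 (r = 0.75), Erlin1 (r = 0.74) and Gtf2h2 (r = 0.73), each highest in L2, L7 or L18. Mdfic also led the striatal cluster O12, the one with the highest Foxp2.

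In LS neurons as a whole, Foxp2 had 227, 207, 165 and 178 CPM, and both C57J libraries stood above the others. With nuclei thinned to 2000 UMIs, a Foxp2 UMI was found in 18.0% of LS neurons of C57J 1 (exact 95% interval 17.0% to 19.1%) and 16.2% of C57J 2 (15.2% to 17.2%). Nude had 13.6% (12.8% to 14.5%) and BALB/c 11.8% (10.9% to 12.8%). The intervals are Clopper-Pearson intervals and cover counting error only. Thinning left out 3 to 23 LS neurons per library, and without it the shares were 35.2%, 28.5%, 24.6% and 21.5%. Within batch 2, C57J 2 stood 3.42 percentage points above the mean of nude and BALB/c. This is the contrast on which Foxp2 was chosen. Across all genes tested in LS neurons 26.7% had both C57J libraries above both others, and edgeR called 2.33%, a call meaning an adjusted p under 0.05 together with a log2 fold change beyond 0.5 in either direction.

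Foxp1 and Foxp4 showed smaller shifts in LS neurons, described here without a test as well. Foxp1 was at 43.7%, 45.8%, 47.6% and 46.6% of nuclei at 2000 UMIs, with both C57J libraries lowest, and its level ran from 338 to 365 CPM. Without thinning the shares were 83.0%, 80.1%, 82.2% and 90.6%, so that C57J 1 was no longer below nude. The difference in level between the means of C57J and of nude and BALB/c was -17.0 CPM, and -8.90 CPM without nude. Over all neurons the difference in share shrank from -2.35 to -0.18 percentage points and that in level turned to 12.7 CPM. Foxp4 was found in 2.28%, 1.90%, 1.91% and 1.48% of nuclei. The intervals, such as 1.90% to 2.71% in C57J 1 and 1.14% to 1.88% in BALB/c, cover counting error only and are no test between libraries.

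L19 and L1 were singled out by their Foxp2 level, and the share in L19 was so near its upper limit that it says little about differences between libraries. L19 nuclei carried a Foxp2 UMI in 96.9%, 98.0%, 96.9% and 98.0% of cases at 2000 UMIs, and the 4 intervals overlapped. L1 nuclei did in 82.4% (78.8% to 85.5%), 86.5% (82.6% to 89.8%), 80.2% (76.0% to 84.0%) and 77.7% (73.0% to 81.8%) of cases. These intervals cover counting error within a library only and are no test between libraries. The level in L19 was highest in BALB/c and that in L1 lowest there.

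In the other 25 LS clusters as 1 pool, Foxp2 was at 58.9, 53.2, 43.0 and 24.6 CPM and in 8.90%, 8.07%, 7.29% and 3.46% of nuclei at 2000 UMIs. BALB/c was the lowest library in 24 of these 25 clusters, and both C57J libraries stood above both others in 18. Across all 27 clusters that was 19, with 0 the other way. All genes over 20 CPM had 21.8% of their cluster comparisons with C57J above and 17.9% with C57J below. These clusters are parts of the LS neurons in which Foxp2 was chosen, and they share the same libraries. Their counts describe that contrast and lend it no support. The median of the 25 clusters was 50.6, 46.1, 36.9 and 12.9 CPM.

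Those low levels have to be read against cells of another kind. Oligodendrocytes, the myelin-forming glia, showed a Foxp2 UMI in 21.0%, 16.2%, 18.8% and 6.08% of nuclei at 2000 UMIs, with median depths of 2375, 1949, 1752 and 3792 UMIs against 8257, 6705, 6580 and 12700 in the 25 clusters. In the libraries with median depths of 1949 and 1752 UMIs, thinning to 2000 UMIs left out most oligodendrocytes, so their shares there describe the deeper nuclei only. Whether the pooled share of the 25 clusters reflects expression was not tested. It was below the share in oligodendrocytes in every library. L12 was an exception by level, since its 157, 186, 143 and 131 CPM lay above the 113, 106, 94.2 and 28.9 CPM of oligodendrocytes in each library. Neuronal RNA was present in the same glia: all 5 neuron markers (Snap25, Rbfox3, Syt1, Snhg11, Meg3) were counted, and their sum reached 18.9%, 22.7%, 28.4% and 11.4% of its level in LS neurons. BALB/c was lowest in both measures, and the part of free RNA in the low Foxp2 of BALB/c was not tested. Nude had the highest neuron marker sum but not the highest Foxp2. Relative to Foxp2 in its whole library, however, the level in oligodendrocytes was highest in nude, with ratios of 0.333, 0.463, 0.506 and 0.163.

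With the 27 clusters weighted alike in all libraries, Foxp2 in LS neurons was 206, 211, 192 and 172 CPM, and its share 16.8%, 16.5%, 15.1% and 11.4%. Both C57J libraries stayed above the others, while nude, below BALB/c in level as counted, came to lie above it. The difference between the means of both pairs of libraries fell from 45.2 to 26.7 CPM.

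**Figure D4:**
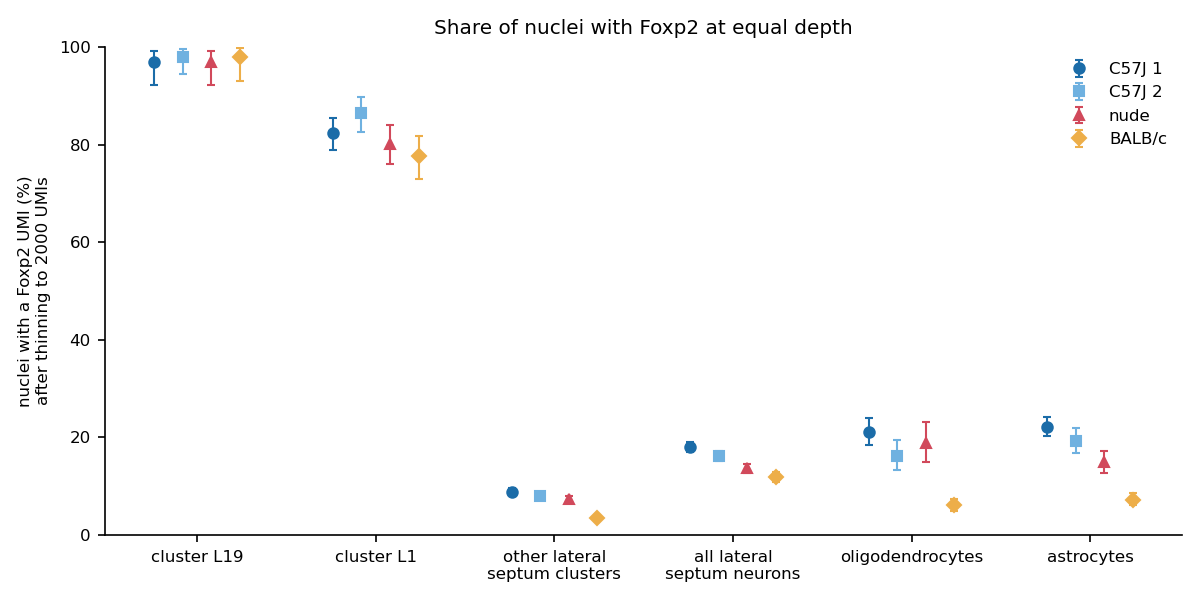
Percentage of nuclei with at least 1 Foxp2 UMI after thinning to 2000 UMIs, with exact 95% binomial intervals that cover counting error only, for 6 sets of nuclei and 4 libraries. L19 and L1 stay between 77.7% and 98.0% in every library, while the other LS clusters lie between 3.46% and 8.90%, below oligodendrocytes in each library.

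Outside LS neurons, Foxp levels of the strain backgrounds were compared with a test. The contrast named in the choice lay in LS neurons, but the members were chosen with earlier results of these data known. These classes come from the same libraries, and neuron markers were counted in the glia among them. They are therefore not independent of that choice, and the p-values are read with this limit. Raw UMIs were summed per library and class, and both C57J libraries were set against nude and BALB/c in 13 classes with edgeR's quasi-likelihood test. Of 39 pairs of gene and class, 32 had enough counts, the 7 others all being Foxp4. None of the 32 was called by edgeR or DESeq2, and 4 had an unadjusted p below 0.05 in edgeR. Among all genes tested in a class, 3.74% to 8.92% had such a p. Of all genes in these classes, the share called was 0.375% in striatal Drd1 neurons, 0.286% in striatal Drd2 neurons, 0.473% in cholinergic neurons, 0.162% in medial septum and Lhx6 GABAergic neurons and 0.0196% in Slc17a6 glutamatergic neurons. In glia and precursors it was 0.106% in astrocytes, 0.0883% in oligodendrocytes, 0.123% in newly forming oligodendrocytes, 0.317% in oligodendrocyte precursors, 0.0659% in microglia and 0.0431% in neuroblasts, with 0% in dividing cells and in vascular cells.

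Foxp2 had both C57J libraries above both others in 7 of the 13 classes and below them in 1, where all genes tested in these classes had 20.5% above and 14.9% below. The 7 were astrocytes, oligodendrocytes, oligodendrocyte precursors, newly forming oligodendrocytes, microglia, dividing cells and striatal Drd1 neurons. Astrocytes had 123, 112, 81.0 and 37.2 CPM (log2 fold change of C57J minus nude and BALB/c 0.95 ± 0.33 (SE), unadjusted p = 0.027, edgeR adjusted p = 0.58). In oligodendrocytes the levels were 113, 106, 94.2 and 28.9 CPM, and microglia had 205, 144, 134 and 62.2 CPM. Oligodendrocyte precursors were closest together with 201, 189, 188 and 145 CPM. In each of these 4 glial classes BALB/c was lowest. Newly forming oligodendrocytes differed, with 131, 74.3, 45.7 and 70.3 CPM, lowest in nude, where 7 UMIs were counted in 39 nuclei.

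The neuron markers in the 4 glial classes with lowest Foxp2 in BALB/c followed a like pattern for BALB/c but not for nude. In astrocytes their sum was 3444, 4158, 4745 and 2192 CPM, in oligodendrocytes 3821, 4321, 5584 and 2198 CPM, in oligodendrocyte precursors 3463, 3986, 4228 and 2120 CPM and in microglia 5781, 7115, 7166 and 4081 CPM. All 5 markers were above 0 in each class and library. BALB/c was lowest and nude highest in the 4 classes. Newly forming oligodendrocytes had the same order, with 2627, 3408, 3574 and 1211 CPM, although BALB/c was not lowest in Foxp2 there. Markers of striatal projection neurons summed to 3277 to 4131 CPM in Drd1 neurons, the ranked class highest in Foxp2. In Drd2 neurons, which had 289 to 454 CPM of Foxp2, they summed to 3510 to 4657 CPM. They are thus no measure of Foxp2 alone. In the 4 glial classes these markers gave another order, since nude lay below both C57J libraries in 3 of them. Their 7 genes summed to 390, 334, 314 and 1501 CPM in astrocytes, 706, 663.4, 662.7 and 573 CPM in oligodendrocyte precursors and 564, 472, 341 and 215 CPM in microglia. Oligodendrocytes had 461, 411, 438 and 285 CPM, with nude between the C57J libraries. All 7 were above 0 in each class and library, and BALB/c was lowest except in astrocytes, where it was highest. The part of these neuronal transcripts in the glial Foxp2 was not tested.

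**Figure D5:**
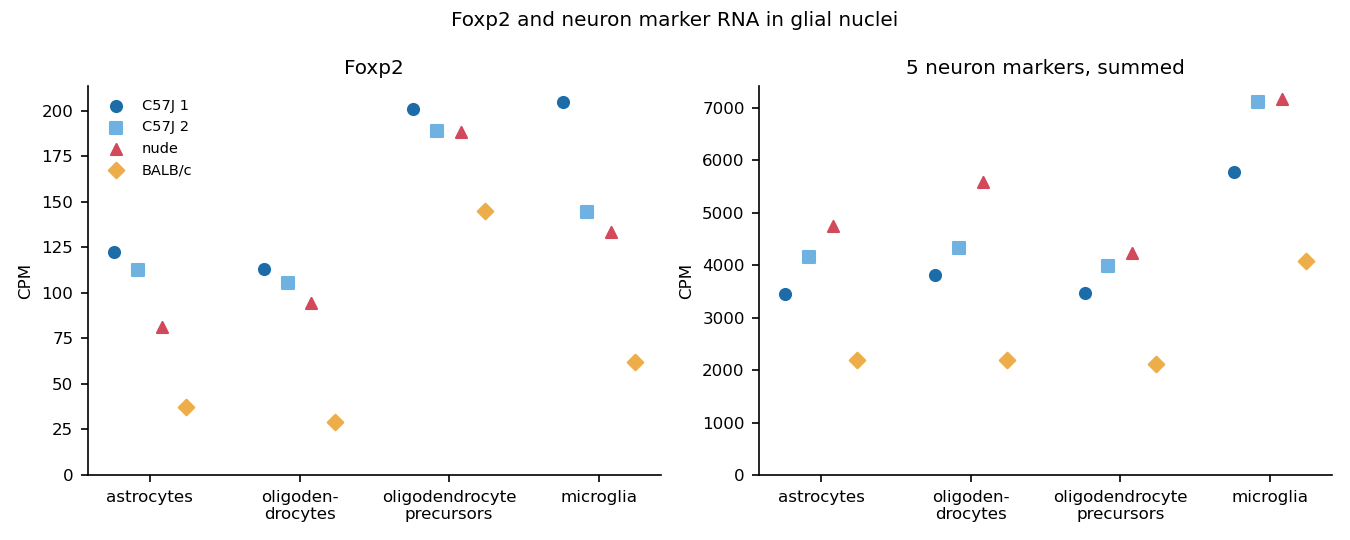
Foxp2 (left) and the sum of 5 neuron markers (right), both in CPM on linear axes, in 4 glial classes, 1 point per library. BALB/c is lowest in both panels in all 4 classes, with Foxp2 at 28.9 to 145, while nude is below both C57J libraries for Foxp2 and above them for the neuron markers.

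One library decided several of these values. Without nude, C57J was set against BALB/c alone. Foxp2 was then higher in C57J in Slc17a6 glutamatergic neurons (log2 fold change 1.72), astrocytes (1.54), medial septum and Lhx6 GABAergic neurons (1.97), microglia (1.45) and oligodendrocytes (1.79). Foxp2 was lower in vascular cells (-1.90), and Foxp1 was lower in striatal Drd1 neurons (-0.60). Without BALB/c, Foxp2 in neuroblasts was higher in C57J by 1.34. In these fits the lone library of the background is assumed to vary like the C57J libraries. Without C57J 2, Foxp2 in striatal Drd1 neurons was higher in C57J by 0.56, and without C57J 1, that is within batch 2, by 0.21. Pairs appear here for passing the call limits in a fit with 1 library in a group. The share of all genes that passed there is not given, so no count is read from these fits.

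In striatal Drd1 neurons the values of Foxp1 and Foxp2 had opposite signs, and neither passed the test. The log2 fold change of C57J minus nude and BALB/c was 0.40 ± 0.14 (SE) for Foxp2 (unadjusted p = 0.016, edgeR adjusted p = 0.40). For Foxp1 it was -0.48 ± 0.12 (SE) (unadjusted p = 0.0036, edgeR adjusted p = 0.20). The share of O13 was highest in C57J 1, the library with the highest Foxp2. With the same mix of clusters in all libraries, C57J 2 no longer stood above BALB/c for Foxp2. For Foxp1 both C57J libraries stayed below the others with that mix. Cluster by cluster, Foxp2 in O2 had both C57J libraries above the others, with 917 and 583 against 474 and 459 CPM. The same held in O13, with 1615 and 1576 against 1180 and 1485 CPM from 27 to 41 nuclei outside C57J 1. In O12 and O16 the libraries overlapped. The share of all genes separated this way in these clusters is not given, so their values are a description only. In the Drd1 class as a whole, 21.4% of all genes tested had both C57J libraries above the others.

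Of all genes tested in the 13 classes, 14.9% had both C57J libraries below the others and 20.5% above. Foxp1 had them above in 0 of these classes, which come from the same libraries, and below in 5. Besides Drd1 neurons these were astrocytes (267 and 281 against 292 and 354 CPM), medial septum and Lhx6 GABAergic neurons (310 and 328 against 373 and 410 CPM), striatal Drd2 neurons and vascular cells. Its log2 fold changes over the 13 classes ran from -0.51 to 0.09, and its lowest edgeR adjusted p was that in Drd1 neurons. In oligodendrocytes, Foxp1 had 393, 374, 381 and 503 CPM, highest in BALB/c, the library with the least neuron marker RNA there. A link between Foxp1 and that RNA was not tested.

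Vascular cells were the class in which both C57J libraries lay below the others for Foxp2, with 128, 151, 373 and 532 CPM in 45, 74, 22 and 91 nuclei (log2 fold change -1.73 ± 0.44 (SE), unadjusted p = 0.0012, edgeR adjusted p = 0.46). Most UMIs came from 1 cluster of 1 library: N13, led by Cemip, Lama1 and the fibroblast marker Slc6a13, held 197 of the 200 vascular Foxp2 UMIs of BALB/c. Its levels were 162, 192, 419 and 836 CPM, the nude value resting on 8 UMIs. The endothelial cluster N14 (Slco1a4, Flt1) had 96.2, 48.4, 345 and 21.3 CPM from 2 to 11 UMIs per library. The LS markers stood at 910, 851, 1883 and 529 CPM in these vascular nuclei, highest in nude. Summed neuron markers in vascular cells were 9548, 7518, 12830 and 5005 CPM, again highest in nude, and lowest in BALB/c, where Foxp2 was highest. Their part in the vascular Foxp2 was not tested.

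In neuroblasts, Foxp2 varied widely within each background, where the 4 levels of 447, 704, 222 and 452 CPM overlapped (log2 fold change 0.68 ± 0.35 (SE), edgeR adjusted p = 0.89). Foxp4 was testable in 6 classes, with log2 fold changes between -0.18 and 0.61. Both C57J libraries stood above the others in 2 of the 6, astrocytes and neuroblasts, and below in 0. All genes tested outside LS neurons had 20.5% above and 14.9% below.

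Genes around the family were counted from 3 lists chosen with earlier results of these data known. Of 41 other Fox genes, only 4 in vascular cells to 16 in LS neurons had enough counts for edgeR. No gene of this list was called in any of the 14 classes with edgeR or DESeq2. Among the 127 pairs of gene and class tested, 14 had an unadjusted p below 0.05 in edgeR. Among all genes tested the share with such a p ran from 3.74% in vascular cells to 14.7% in LS neurons. In LS neurons their median log2 fold change was 0.02, and that of all genes tested was 0.01. Of 28 proteins that bind Foxp proteins or sit in the repressor complexes they recruit, all were testable in LS neurons. Only 1 was called there, Hdac1, a histone deacetylase of the NuRD complex. Hdac1 had 29.5, 33.3, 18.1 and 15.5 CPM, higher in C57J by 0.88 ± 0.12 (SE) on the log2 scale with an edgeR adjusted p of 0.017, against the 2.33% of all genes called in LS neurons. It was called in 8 of 10 settings, and over all classes the list had 1 call in 314 pairs. None of 8 reported targets of FOXP2, such as Cntnap2 and Srpx2, was called in any class with edgeR or DESeq2, and 15 of 74 pairs had an unadjusted p below 0.05 in edgeR. In LS neurons 6 were tested, with a median log2 fold change of -0.16 against 0.01 for all genes, and 1 had an unadjusted p below 0.05.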

How the data were processed

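The authors aligned reads to mm10 with Cell Ranger 7.0.1 and deposited, unnormalized, the UMI counts of every gene in every nucleus. Barcodes with over 200 and under 6000 genes, over 300 and under 50000 UMIs and under 2% mitochondrial UMIs were kept, and predicted doublets were removed. Instead of the study's integration, all libraries were clustered jointly in steps, without the Foxp genes and 41 strain-dependent genes. The final step, in LS neurons, used 30 components of 2000 variable genes at resolution 1 (leidenalg 0.10.2). The first step, over all nuclei, used more components and genes, and the steps that named the classes used a higher resolution. Classes were named from marker lists, so shares may differ from those of the study. The main test was edgeR 4.0.16 (TMM, filterByExpr, Benjamini-Hochberg over all genes of a class) on UMIs summed per library, in place of the study's rank-sum test over nuclei, in classes with at least 20 nuclei per library, and DESeq2 1.42.0 was an alternative. The procedure was tested on simulated data. A count of 0 was read as allowing 3. Named genes were the members, Foxn1, Foxp3, the 5 genes closest to each member among those over 20 CPM in an LS cluster, called genes of the lists, and cluster markers. Members and lists were chosen with earlier results of these data known. Positions are those of the GENCODE annotation on GRCm38, matched by identifier.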

Additional observations from a re-analysis of the deposited data

Results flagged for a closer look

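Foxp2 in vascular cells went against its direction in 7 other classes: the log2 fold change of C57J minus nude and BALB/c was -1.73, while in these 7 classes both C57J libraries stood above the others. The difference between the classes was not tested. The vascular value rests on 21, 22, 19 and 200 UMIs of Foxp2 in C57J 1, C57J 2, nude and BALB/c.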

How the results depend on the processing

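The lower Foxp2 of nude and BALB/c in LS neurons kept its direction under all settings run. These settings reuse the libraries on which that contrast was chosen, so they describe the effect of processing and lend the contrast no support. The difference in the share of nuclei was 4.37 percentage points (mean of C57J minus mean of nude and BALB/c), 2.58 at 1000 UMIs, 6.55 at 4000 UMIs, 8.79 without thinning and 8.24 over all neurons, and 3.42 to 5.31 without 1 library. The difference in level was 45.2 CPM, 109 over all neurons and 26.7 with the same mix of clusters, and 35.2 to 55.2 without 1 library. The count of called pairs outside LS neurons, 0, became 1 with no filter beyond 1 UMI (Foxp2 in astrocytes, 0.95). The share of all genes called under that setting is not given. In striatal Drd1 neurons the same setting gave edgeR adjusted p of 0.011 for Foxp1 and 0.030 for Foxp2. Their log2 fold changes of -0.46 and 0.42 stayed within the limit of 0.5. The count stayed at 0 with DESeq2, the adjusted p alone, doublets kept, stricter limits of 500 genes and 1000 UMIs and resolution 2. Without 1 library the count depended on which was left out, and only fold changes are given for those fits. Reversed were Foxp1 in LS neurons (-17.0 CPM, 12.7 over all neurons), the Foxp4 share (0.40 points, -0.19 without thinning), and, without BALB/c, Foxp2 in Slc17a6 glutamatergic neurons (-0.33, against 1.72 without nude) and in medial septum and Lhx6 GABAergic neurons (-0.58, against 1.97). The mix of classes differs by construction over all neurons, and the other causes were not tested. Foxp1, Foxp2 and Foxp4 kept their highest class with the mean over nuclei and at resolution 2. No paired analysis was possible, since batch 1 held only a C57J library and nude and BALB/c have 1 library each. Foxp4 was limited by low counts, with 7 of its 13 classes too low to test.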
